A study of Mus musculus with 27 samples.

Results

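Levels of 9 genes of the amino acid stress pathway run by the transcription factor ATF4 were followed in mouse embryonic fibroblasts given gamma radiation. They are Atf4, Ddit3, Asns, Chac1, Trib3, Ddit4, Psat1, Phgdh and Slc7a11, chosen by symbol, and they make up 9 of the 18193 genes that the arrays measured under a single symbol. For each, the probe set with the highest mean intensity stands for the gene, and 19 probe sets carry 1 of these symbols alone. Changes averaged over the 3 lines were tested after the values had been seen. By these, Ddit3, Trib3 and Chac1 were lower 4 h after irradiation than in untreated cells, beside 8.92% of all genes. The Chac1 call depended on the settings, and within single lines none of the 9 genes was called at 4 h against untreated. By the same averages 6 of the 9 genes were higher at 24 h than at 4 h, beside 6.46% of all genes. With all arrays set to an equal median, 3 of the 9 were. Under that scaling the count of all genes called higher also fell, from 1175 to 587. Asns was higher in the untreated knockout line and in the untreated line labelled R than in the untreated wild-type line.

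When cells lack an amino acid, uncharged transfer RNA activates the kinase GCN2, which phosphorylates the initiation factor eIF2. Other kinases do the same during stress in the endoplasmic reticulum or when haem is short. General translation then slows while the Atf4 messenger RNA is translated more, so the protein ATF4 can change without its transcript. ATF4 pairs with C/EBP proteins on composite DNA elements and turns on genes that make, import and charge amino acids, and genes that limit growth or favour cell death if the stress lasts. In fibroblasts the pathway is known from cells starved of amino acids, and the growth kinase AKT feeds it through mTORC1.

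The groups came from 3 fibroblast lines. The labels name a line wild type for PKBalpha, the kinase that Akt1 encodes, a line with PKBalpha knocked out (ko PKBalpha) and a line in which PKBalpha was put back into the knockout (ko/rescued PKBalpha), here called the line labelled R. Each line was sampled untreated, 4 h after 10 Gy and 24 h after 10 Gy, and the labels count 3 biological replicates for each group, giving 9 groups and 27 arrays. All cells were labelled as female, at passage 45, in medium with 10% serum, non-essential amino acids and glutamine, and were cultured for 24 h before irradiation. The labels do not say how long untreated cells were kept, so irradiation and time in culture cannot be told apart. Each genotype is 1 line, so the replicate error holds no spread between lines, and genotype and line cannot be told apart either. The groups follow the sample titles, since the descriptions of the 6 irradiated wild-type samples call them untreated.

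Across the whole series the arrays held 45101 probe sets, and from 10003 to 10850 genes per array lay above a background intensity of 69.9, the highest value among 13 Y-linked probe sets, whose genes are missing from female cells. Akt1, the label check, ran from 2981 to 4546 on the 9 wild-type arrays, from 2.35 to 65.5 on the 9 knockout arrays and from 6.25 to 41.9 on the 9 arrays labelled R. The line labelled R thus reads below background for Akt1, against its label, and a transgene without the probed sequence would not be read. The control probe sets for Gapdh and actin, whose 3′ to 5′ ratio follows RNA integrity and labelling, set 5 arrays apart (1 each of wild type untreated, wild type 4 h, knockout untreated, R untreated and R 24 h). Gapdh log2 ratios were between -0.19 and 0.16 on these 5 and between -0.47 and -0.30 on the remaining 22, and results that change without these 5 arrays are given both ways. All 9 fibroblast markers were above background in every group. Of the 4 endothelial markers, 1 (Kdr) was above background in the wild-type groups and none in the others, and the summed level of 4 neural markers was 489.8 to 884.9 in wild-type arrays and 1005 to 2118 in the other arrays, so the lines differ in more than Akt1. The neural sum is not a shift of the whole set. Tubb3 had untreated means of 33.77 in wild type, 633 in knockout and 415.8 in R, and Sox10 was below background in every group. Up to 2 of 5 epithelial, 2 of 4 leukocyte and 1 of 4 muscle markers were above background in a group.

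The DNA element that ATF4 and C/EBP proteins share can be looked for at the start of these genes, and the stretches that hold it are shown. The genes were chosen by symbol for the ATF4 pathway, so the matches are not independent of that choice. The letters TGATGNAA were searched on both strands in RefSeq windows of 300 bases, from 250 before to 50 after each start (build GRCm38.p6), which covered all 9 genes in 10 windows. The motif was found in 4 of the 9 genes, Asns, Chac1, Slc7a11 and Trib3, and in 3.97% of all 32851 windows of the same length. The stricter form TTGCATCA, whose reverse complement fits the first motif and so overlaps with it, was in 2 of the 9 genes and in 0.895% of all windows. Sequences are written 5′ to 3′ along the gene's strand with each match in capitals. The Asns stretch is chr6:7693210-7693309 on the minus strand, and its match begins 23 bases before the start. The Chac1 stretch is chr2:119351012-119351111 on the plus strand, with a match on the opposite strand beginning at -193. The Slc7a11 stretch is chr3:50443614-50443713 on the minus strand, with matches in either orientation beginning at -66 and -47. The Trib3 stretch, chr2:152344029-152344058 on the minus strand, lies after the start, and its match begins at position 15 of the transcript.
Asns: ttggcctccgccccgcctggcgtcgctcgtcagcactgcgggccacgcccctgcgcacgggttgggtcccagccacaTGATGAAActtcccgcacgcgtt
Chac1: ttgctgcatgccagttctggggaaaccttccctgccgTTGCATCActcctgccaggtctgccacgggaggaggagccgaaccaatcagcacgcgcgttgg
Slc7a11: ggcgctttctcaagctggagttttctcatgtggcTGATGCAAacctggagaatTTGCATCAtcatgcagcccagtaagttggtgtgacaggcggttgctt
Trib3: attagctcaggtTTACATCAgccgggcggg
A match is a description of letters and not of binding, and the windows of Atf4, Ddit3, Ddit4, Psat1 and Phgdh hold no such letters.

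All 9 genes were above background on all 27 arrays, so each level could be read in every group. Ddit4, Trib3 and Slc7a11 had the widest span of group means, with the highest group 3.05, 2.92 and 2.89 times the lowest, and Phgdh the narrowest, at 1.13 times. Next came Chac1 at 2.54, Ddit3 at 2.28, Asns at 1.87, Psat1 at 1.67 and Atf4 at 1.52 times. The 24 h wild-type group was the highest for Atf4, Ddit3, Chac1, Trib3 and Ddit4, and the 4 h knockout group was the lowest for Ddit3, Chac1, Trib3 and Slc7a11. When the 9 groups were ordered by level for each gene, 68 of the 72 neighbouring pairs had overlapping ranges, so most steps in these orders do not differ beyond their spread. The 4 steps without overlap were Ddit3 in R 24 h over wild type untreated, Ddit3 in knockout untreated over wild type 4 h, Asns in wild type 24 h over knockout 4 h, and Psat1 in knockout 4 h over R 4 h. These orders are those of the brightest probe sets. On a second probe set, Ddit3 in knockout untreated again lay above wild type 4 h (238.4 to 326.5 and 141.7 to 186.2). The other steps overlapped there, and the Ddit3 mean was 248.9 in R 24 h, below 281.4 in wild type untreated.

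**Figure D1:**
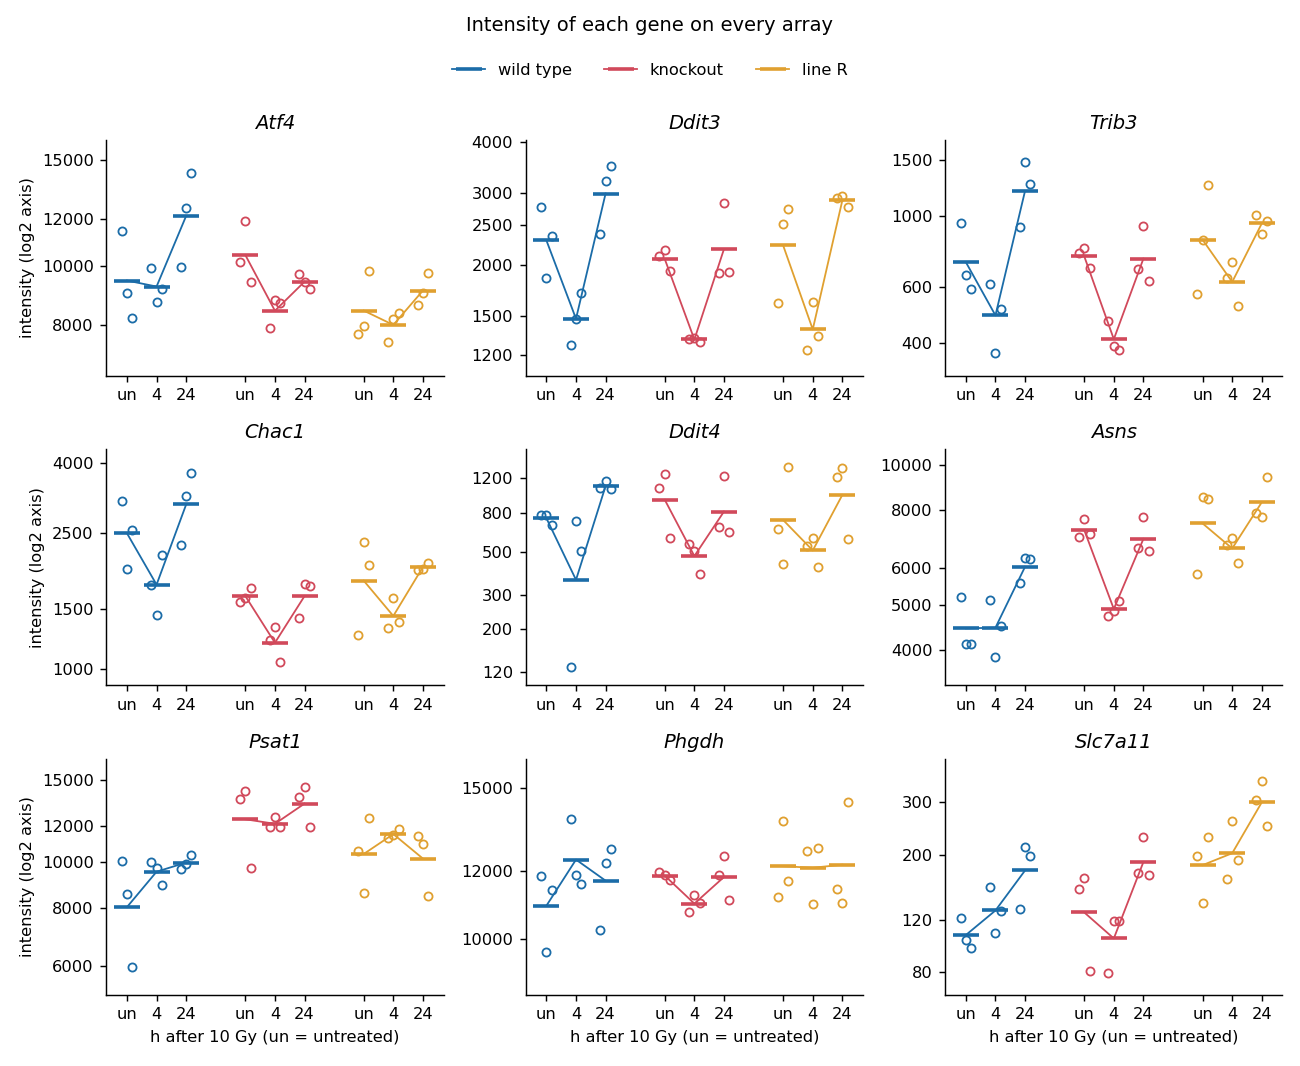
Intensity (log2 axis) of each gene in the wild-type line, the knockout and the line labelled R, untreated (un), 4 h and 24 h after 10 Gy. Circles are single arrays and bars are geometric means of 3. Ddit3 and Trib3 dip at 4 h in each line, Phgdh stays between 9676 and 14460, and Asns in untreated knockout cells lies above all untreated wild-type arrays.

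Ddit3 encodes CHOP, a transcription factor that ATF4 induces and that favours cell death in lasting stress. In the wild-type line it read 2773, 1853 and 2357 in untreated cells, 1275, 1476 and 1707 at 4 h, and 2388, 3206 and 3503 at 24 h. All 3 arrays at 4 h were below all untreated arrays, and all 3 at 24 h were above all 4 h arrays. In the knockout it read 2108, 2170 and 1931 untreated, 1319, 1322 and 1295 at 4 h, and 1908, 2845 and 1925 at 24 h. The 4 h arrays again stood below both other groups, with no overlap. In the line labelled R it read 1610, 2523 and 2737 untreated, 1239, 1618 and 1337 at 4 h, and 2912, 2956 and 2774 at 24 h, where only 1 untreated array overlapped with the 4 h arrays. The log2 difference between 4 h and untreated cells was -0.64 ± 0.21 (SE), -0.66 ± 0.21 and -0.68 ± 0.21 in the 3 lines in this order. None of these passed by itself (limma adjusted p = 0.095, 0.16 and 0.11). The even size of the fall holds for this probe set alone. On a second, dimmer Ddit3 probe set the means, untreated and at 4 h, were 281.4 and 156.3 in wild type and 285.9 and 189.4 in the knockout. In R they were 203.5 and 191.5, with overlapping arrays.

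Trib3 encodes a pseudokinase that binds ATF4 and AKT and dampens their action. In the wild-type line it read 953.6, 654.3 and 593.7 untreated, 613.1, 372.8 and 511.7 at 4 h, and 927.5, 1476 and 1266 at 24 h. Knockout arrays read 767.7, 796.3 and 689 untreated, 468.6, 391.3 and 380.8 at 4 h, and 682.5, 934 and 627.6 at 24 h. Arrays labelled R read 569.4, 841.7 and 1255 untreated, 641.1, 718.8 and 523.6 at 4 h, and 1008, 879.9 and 966.5 at 24 h. The 24 h arrays stood above all 4 h arrays in every line, while the 4 h arrays lay wholly below the untreated ones in the knockout alone. The change from 4 h to 24 h was 1.30 ± 0.26 in the wild-type line (adjusted p = 0.012), 0.84 ± 0.26 in the knockout (0.28) and 0.61 ± 0.26 in the line labelled R (0.25).

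Chac1 encodes an enzyme that breaks down glutathione and is a direct ATF4 target. In the wild-type line it read 3105, 1958 and 2559 untreated, 1764, 1441 and 2162 at 4 h, and 2309, 3213 and 3753 at 24 h. The knockout values were 1569, 1608 and 1730 untreated, 1217, 1328 and 1050 at 4 h, and 1409, 1769 and 1751 at 24 h. Its values in R were 1255, 2354 and 2016 untreated, 1319, 1613 and 1373 at 4 h, and 1952, 1967 and 2047 at 24 h. The 24 h arrays stood above the 4 h arrays without overlap in all 3 lines, and the knockout arrays sat low throughout. Ddit4 encodes REDD1, an inhibitor of mTORC1 that p53 and ATF4 both induce. It was the noisiest of the 9, with a pooled within-group SD of 0.64 in log2 units. In the wild-type line it read 774.1, 781.2 and 692.3 untreated, 127.4, 720.2 and 507 at 4 h, and 1074, 1165 and 1052 at 24 h, and the array at 127.4 is among the 5 set apart by their control ratios. In the knockout it read 1071, 1270 and 591.6 untreated, 552.8, 508.1 and 386.3 at 4 h, and 676.2, 1234 and 635.7 at 24 h. In the line labelled R it read 660.4, 433.1 and 1370 untreated, 535.5, 593.7 and 417 at 4 h, and 1218, 1354 and 581.4 at 24 h. The 4 h group had the lowest mean in each line, but its arrays overlapped with the untreated arrays in the line labelled R and in the wild-type line.

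Within single lines, limma called none of the 9 genes between 4 h and untreated cells, where 3.25%, 0.368% and 0.978% of all genes were called in wild type, knockout and R. At an unadjusted p below 0.05 there were 3, 4 and 1 of the 9. Here and below, the shares of all genes called by limma are at the stricter adjusted threshold. They are therefore no background for counts at an unadjusted p. Between 24 h and untreated cells it again called none, with 0.0495%, 0% and 0% of all genes called, and 4, 0 and 1 of the 9 at an unadjusted p below 0.05. Counted by arrays without overlap, 7 of the 9 genes were lower at 4 h than untreated in the knockout, where 14.1% of all genes were, 1 of 9 in the wild type (10.8%), and none in the line labelled R, where 20.7% of all genes stood apart in either direction. The 7 were Atf4, Ddit3, Asns, Chac1, Trib3, Ddit4 and Phgdh, each on its brightest probe set. On a second probe set the knockout arrays overlapped for Atf4 (untreated 1809 to 3200, 4 h 1915 to 2446) and Phgdh (9889 to 11160 and 9810 to 10117). For Ddit3, Asns and Trib3 they did not.

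From 4 h to 24 h, limma called Ddit3 (1.02 ± 0.21, adjusted p = 0.013) and Trib3 higher in the wild-type line, where 1.11% of all genes were called higher, and Ddit3 (1.05 ± 0.21, adjusted p = 0.019) in the line labelled R, where 1.24% were. It called none of the 9 in the knockout, where 0.0055% of all genes were called and 4 of the 9 had an unadjusted p below 0.05. By arrays without overlap, 6 genes were higher at 24 h in the wild type (12.3% of all genes), 7 in the knockout (10.6%) and 5 in the line labelled R (15.5%). The wild-type Ddit3 call was lost without the 5 arrays (adjusted p = 0.057) and without wild type 4 h replicate 0 (0.073), 24 h replicate 1 (0.066) or 24 h replicate 2 (0.059). The Trib3 call was lost without wild type 4 h replicate 1 (0.066) or 24 h replicate 1 (0.070), and the Ddit3 call in R without any of 5 of its 6 arrays (0.057 to 0.10). A second Ddit3 probe set, dimmer than the first, gave 0.38 (0.62) in the line labelled R. Ddit4 in R was at 0.95 ± 0.51 (0.39) and passed without the 5 arrays (1.33, 0.048).

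The mean of the 3 lines' changes was also tested, a comparison added after the values had been seen. Ddit3 fell by 0.66 ± 0.12 on the log2 scale from untreated to 4 h (limma adjusted p = 0.0011, 9 arrays in each group), Trib3 by 0.62 ± 0.15 (0.0079) and Chac1 by 0.43 ± 0.13 (0.026). These were 3 of the 9 genes, beside 8.92% of all genes called lower, and 0 of 9 were called higher, beside 6.55%. The others did not pass: Ddit4 was at -0.85 ± 0.29 (0.056), Asns at -0.25 ± 0.09 (0.059), Atf4 at -0.14 ± 0.08 (0.29), Psat1 at 0.12 ± 0.10 (0.50), Slc7a11 at 0.04 ± 0.16 (0.92) and Phgdh at 0.02 ± 0.07 (0.90). The median over the 9 genes was -0.25, and over all genes -0.03. The Chac1 call was lost under 4 of 11 alternatives, without the 5 arrays (-0.35, adjusted p = 0.15), with equal array medians (-0.35, 0.11), on the compared arrays alone (0.052) and with each probe set by itself (0.051), and without any of 5 single arrays (0.055 to 0.062). Without the 5 arrays Ddit4 passed (-0.85, 0.0089). Ddit3 and Trib3 also passed on their second probe sets, at -0.51 (0.025) and -0.91 (0.0091), with p adjusted over all probe sets.

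From 4 h to 24 h the mean over the 3 lines rose for 6 of the 9 genes, beside 6.46% of all genes called higher, with the same 4 h arrays now as the lower side, so the dip and the return are not separate evidence. Ddit3 rose by 0.94 ± 0.12 (adjusted p = 1e-04), Trib3 by 0.92 ± 0.15 (0.00067), Chac1 by 0.57 ± 0.13 (0.0071) and Ddit4 by 1.11 ± 0.29 (0.019). Asns, the asparagine synthetase gene, rose by 0.42 ± 0.09 (0.0037), and Slc7a11, the cystine importer that feeds glutathione synthesis, by 0.63 ± 0.16 (0.016). Atf4 was at 0.25 ± 0.08 (0.066), and the serine synthesis genes Psat1 and Phgdh were at 0.01 ± 0.10 (0.97) and 0.01 ± 0.07 (0.95). The median over the 9 genes was 0.57, against 0.05 over all genes. Setting all arrays to an equal median moved the all-gene median to -0.07 and left 3 of the 6 calls, Ddit3, Trib3 and Chac1, and under it 7 rather than 9 of the genes were positive. Under that scaling the genes called over the whole array also changed from 1175 higher and 713 lower to 587 higher and 1132 lower, and for 4 h against untreated from 1191 higher and 1622 lower to 1179 higher and 1047 lower.

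**Figure D2:**
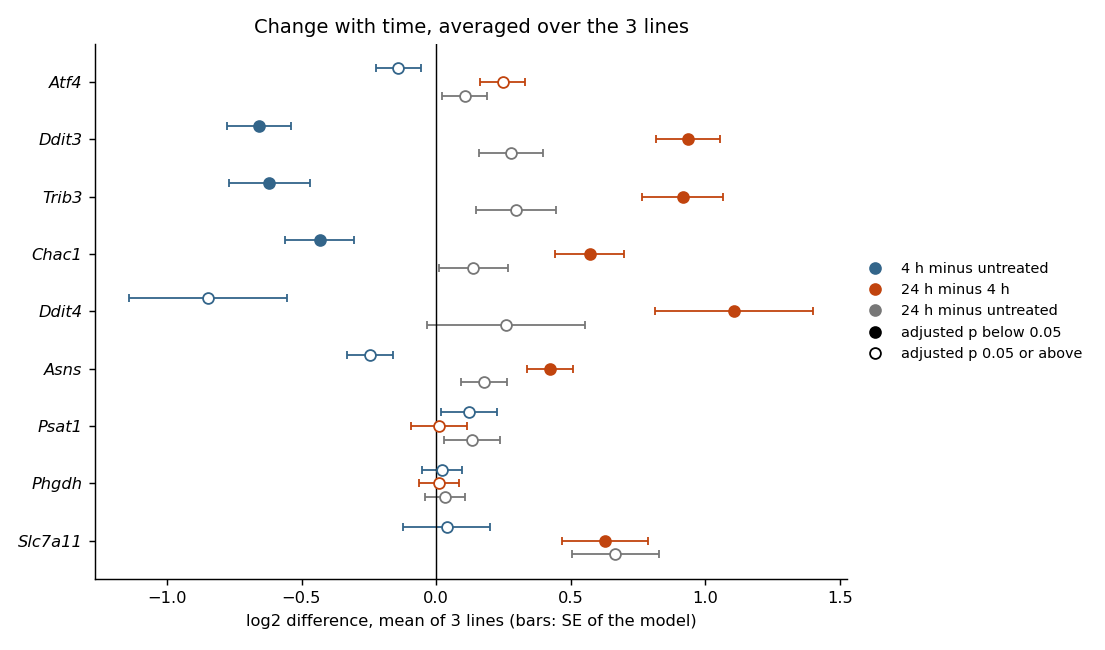
Log2 difference of each gene between times, as the mean of the 3 lines, with bars of 1 SE from the model. Filled points have an adjusted p below 0.05. The blue points of Ddit3, Trib3 and Chac1 are filled and below 0, the orange points of 6 genes are filled and above 0, and no gray point (24 h minus untreated) is filled.

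At 24 h against untreated cells the mean over the lines was positive for all 9 genes, and limma called none, beside 0.313% of all genes. At an unadjusted p below 0.05 there were 2 of the 9, Ddit3 at 0.28 ± 0.12 (adjusted p = 0.31) and Slc7a11 at 0.67 ± 0.16 (0.077). Slc7a11 was the dimmest of the 9, at 122.5, 103.1 and 96.9 in untreated wild-type cells, 155.2, 108.2 and 128.9 at 4 h, and 130.9, 212.6 and 198.2 at 24 h. Knockout arrays read 153, 167 and 81 untreated, 79.6, 119.2 and 119 at 4 h, and 172.6, 229.1 and 170.3 at 24 h. Arrays labelled R read 198.5, 137 and 229.8 untreated, 165.9, 258.9 and 192.2 at 4 h, and 305.6, 355.6 and 249.6 at 24 h. Its 24 h arrays were above the untreated ones without overlap in all 3 lines on this, the brightest probe set. On a second, dimmer Slc7a11 probe set they overlapped in the wild type (untreated 52.38 to 90.62, 24 h 77.32 to 156.4). They also overlapped in the knockout (67.66 to 92.71 and 71.66 to 134.4), but not in R. Genes without overlap in this direction numbered 3 of 9 in the wild type, with Asns and Ddit4 (7.68% of all genes), 1 of 9 in the knockout (6.48%) and 2 of 9 in R, with Ddit3 (5.24%). On the brightest probe set the mean of Slc7a11 at 4 h was not below the untreated mean in the wild type or in R. On the second, the wild-type mean was 72.7 untreated and 52.9, below background, at 4 h. NRF2 is the other known activator of this gene.

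Atf4 encodes the regulator itself. It read 11459, 9042 and 8201 in untreated wild-type cells, 9930, 8710 and 9172 at 4 h, and 9979, 12514 and 14293 at 24 h. The knockout values were 10165, 11909 and 9408 untreated, 7887, 8777 and 8678 at 4 h, and 9711, 9409 and 9185 at 24 h. Its values in R were 7718, 7950 and 9810 untreated, 7478, 8178 and 8352 at 4 h, and 8614, 9019 and 9752 at 24 h. In all 3 lines the 24 h arrays lay above the 4 h arrays without overlap on this, the brightest probe set. On a second, dimmer Atf4 probe set they overlapped in each line. The mean change over the lines, 0.25 ± 0.08, missed the threshold (limma adjusted p = 0.066) and passed on the compared arrays alone (0.043), with an intensity trend (0.035), among genes above the median level (0.027) and after quantile normalization (0.025). The knockout alone had 4 h arrays wholly below its untreated arrays, at -0.31 ± 0.14 (adjusted p = 0.37). Transcript level says nothing here of ATF4 protein, which was not measured.

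Asns encodes the enzyme that makes asparagine from aspartate and glutamine. It read 5205, 4118 and 4107 in untreated wild-type cells, 5130, 3857 and 4497 at 4 h, and 5574, 6302 and 6277 at 24 h. In the knockout it read 6998, 7672 and 7097 untreated, 4734, 4860 and 5106 at 4 h, and 6616, 7742 and 6530 at 24 h. In the line labelled R it read 5816, 8538 and 8472 untreated, 6735, 6983 and 6161 at 4 h, and 7906, 7749 and 9420 at 24 h. Untreated arrays of the knockout and of R all lay above the untreated wild-type arrays, and at 4 h the knockout overlapped with the wild type while R did not. Of all genes 13.4% were higher without overlap in untreated knockout cells than in untreated wild-type cells and 14.6% in untreated R, and 15.9% were lower in the knockout, Chac1 among them. Psat1, the aminotransferase of serine synthesis, read 10084, 8558 and 5978 in untreated wild-type cells, 10027, 9733 and 8934 at 4 h, and 9690, 9935 and 10377 at 24 h. Knockout arrays read 13680, 14230 and 9744 untreated, 11890, 12517 and 11922 at 4 h, and 13828, 14520 and 11922 at 24 h. Arrays labelled R read 10557, 8612 and 12473 untreated, 11267, 11481 and 11771 at 4 h, and 11385, 10977 and 8476 at 24 h. On this, the brightest probe set, the knockout arrays were above all wild-type arrays at 4 h (as for 16% of all genes) and at 24 h (17.4%), and 1 of them overlapped in untreated cells. On a second, dimmer Psat1 probe set the arrays overlapped at 4 h (wild type 4813 to 6266, knockout 5654 to 6985). They did not in untreated cells (4463 to 5619 and 7200 to 8115) or at 24 h (4624 to 5558 and 6518 to 8064). Phgdh, the dehydrogenase at the entry of the serine pathway, lay between 9676 and 14460 on all 27 arrays. Its group means ran from 10946 in untreated wild-type cells to 12385 in wild-type cells at 4 h, and the SD of the group means, 0.06 in log2 units, was below the pooled within-group SD of 0.13.

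Between untreated lines, limma called Asns higher in knockout than in wild-type cells, by 0.70 ± 0.15 (adjusted p = 0.0019), and Psat1 by 0.63 ± 0.18 (0.019), while 7.77% of all genes were called higher. Fewer cells with a transcript and less transcript per cell cannot be told apart in bulk RNA. Asns was also called higher in the line labelled R, by 0.75 ± 0.15 (0.001), where 9.39% of all genes were, and these comparisons share the untreated wild-type arrays. The Asns calls held with any 1 array left out (adjusted p up to 0.012 and 0.0087), without the 5 arrays, and on a second probe set at 0.75 (0.027) and 0.95 (0.0048). The Psat1 call was lost without wild type untreated replicate 2 (0.41, adjusted p = 0.12), knockout untreated replicate 0 (0.084) or replicate 1 (0.096), and a second probe set gave 0.60 (0.011). Slc7a11 in the line labelled R was at 0.78 ± 0.28 (0.057), and passed without the 5 arrays (0.93, 0.023). The other 6 genes had adjusted p of 0.065 or more in both comparisons. Between untreated R and untreated knockout limma called none of the 9 genes, beside 3.79% of all genes, with 1 of 9, Atf4, at an unadjusted p below 0.05. Equal array medians changed the genes called between knockout and wild type from 1413 higher and 1789 lower to 2297 higher and 1277 lower, with an all-gene median of 0.22, and between R and wild type from 1709 higher and 1709 lower to 2084 higher and 1321 lower, with a median of 0.18. The Asns and Psat1 calls were kept under this scaling.

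The lines were also compared after irradiation, in comparisons added after the values had been seen. At 4 h limma called Asns higher in R than in the wild type by 0.57 ± 0.15 (adjusted p = 0.011), where 6.99% of all genes were called higher, and this was lost without wild type 4 h replicate 1 (0.46, 0.072). Between knockout and wild type at 4 h it called none of the 9, beside 14.8% of all genes, with 1 of 9 (Chac1) at an unadjusted p below 0.05 and Asns at 0.13 ± 0.15 (0.66). At 24 h Chac1 was lower in knockout than in wild-type cells by a log2 difference of -0.89 ± 0.22 (0.0065), where 10.1% of all genes were called lower, and this held with any 1 array left out (adjusted p up to 0.046). At 24 h Asns was called higher in R by 0.46 ± 0.15 (0.032), beside 10.9% of all genes called higher, and Atf4 lower at -0.41 ± 0.14 (0.049), beside 9.78% called lower. The Asns call at 24 h was lost without the 5 arrays (0.37, 0.089), and both calls at 24 h were lost without any of 5 of the 6 arrays compared (adjusted p from 0.05 to 0.14 for Asns and from 0.058 to 0.23 for Atf4). The Atf4 call was also lost under 7 of 11 alternatives, among them the replicate block (0.06), a robust prior (0.053) and quantile normalization (0.085). A second Asns probe set gave 0.70 (0.035), and a second Atf4 probe set -0.07 (0.92). Between R and knockout it called none of the 9 at 4 h (3.38% of all genes) or at 24 h (5.27%), with 3 and 2 of 9 at an unadjusted p below 0.05, Slc7a11 among them at 0.96 ± 0.28 (0.067) and 0.67 ± 0.28 (0.20). Without the 5 arrays Slc7a11 passed there at 4 h (0.96, 0.016). Against wild type, Slc7a11 in R was at 0.64 ± 0.28 (0.14) at 4 h and 0.77 ± 0.28 (0.058) at 24 h. It passed at both times without the 5 arrays (0.77, 0.037 and 0.90, 0.014). Psat1 in knockout against wild type was at 0.34 ± 0.18 (0.26) at 4 h and 0.42 ± 0.18 (0.12) at 24 h. Without the 5 arrays it passed at both (0.38, 0.021 and 0.42, 0.0038).

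**Figure D3:**
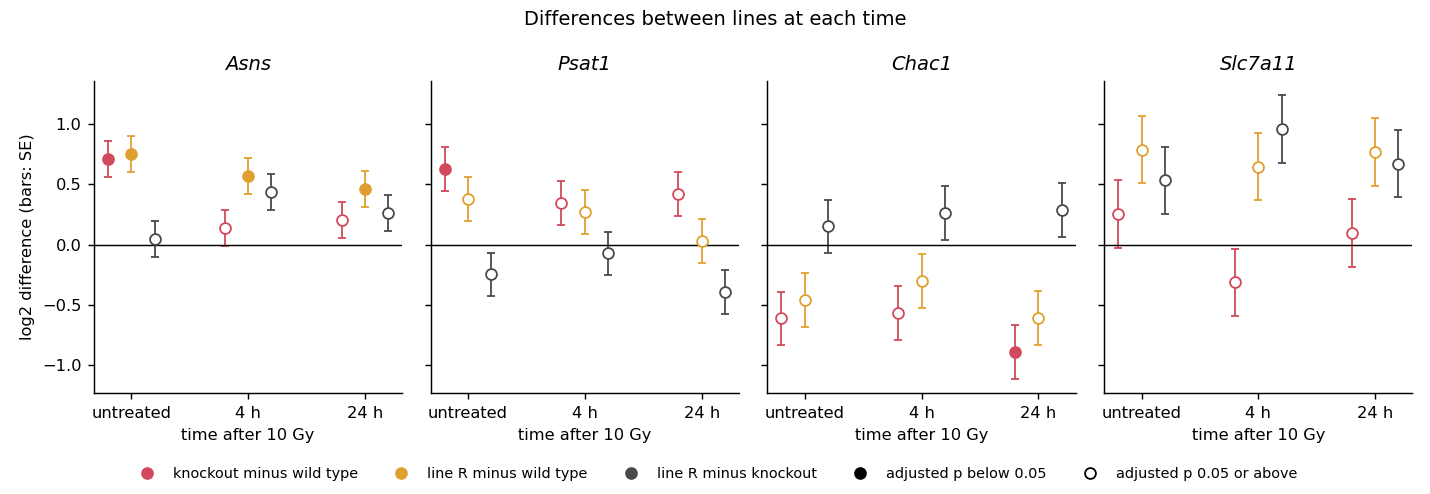
Log2 difference between lines in untreated cells and at 4 h and 24 h after 10 Gy for Asns, Psat1, Chac1 and Slc7a11, with bars of 1 SE from the model. Filled points have an adjusted p below 0.05. Asns in R is filled at all 3 times, from 0.75 untreated to 0.46 at 24 h, Chac1 in the knockout only at 24 h (-0.89), and no Slc7a11 point is filled. Without the 5 arrays set apart, Slc7a11 in R passed against wild type at all 3 times and against the knockout at 4 h.

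The 10 calls between single groups named above rest on a spread estimated from all 9 groups, and fitted on the compared arrays alone none of the 10 passed (adjusted p from 0.072 to 0.29). A difference between lines in the response itself was tested as an interaction, with 6 such contrasts and 54 differences for the 9 genes. limma called 0 of the 54, with a lowest adjusted p of 0.75, and 4 had an unadjusted p below 0.05. Over the 6 contrasts the share of all genes called was 0%, 0.0055%, 0.011% or 0.0165%. The 4 h drop of Asns in the knockout (-0.57 ± 0.15, adjusted p = 0.092) beside 0.01 ± 0.15 in the wild type is therefore not shown to differ between the lines.

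The wider pathway was read from lists of genes set by symbol, first over the 3 lines together. The counts at 4 h stand beside 8.92% of all genes called lower and 6.55% called higher, so a count of 1 or 2 in lists of this size is near that background. From untreated to 4 h, of 15 other stress targets of ATF4, 2 were called lower and 1 higher (median -0.14). Sesn2, whose product senses leucine and restrains mTORC1, was at -0.59 (adjusted p = 0.010), the stress cofactor gene Nupr1 at -0.45 (0.0031), and the cell cycle inhibitor gene Cdkn1a, which p53 induces after radiation, at 0.73 (0.031). The group means of Cdkn1a, untreated and at 4 h, were 592.2 and 2132 in wild type, 235.3 and 233.8 in the knockout, and 115.4 and 147.4 in the line labelled R. The wild-type change passed by itself (1.85, limma adjusted p = 0.015), and its difference from the change in the knockout (0.54) or in R (0.66) was not called. Of 18 cytosolic aminoacyl-tRNA synthetase and export genes 4 were lower and none higher, with Cars at -0.54 (0.00077) and Sars at -0.38 (0.0055). Of 12 amino acid transporters 2 were lower and none higher, with the glycine transporter gene Slc6a9 at -0.60 (0.0020), and of 12 synthesis enzymes 2 were lower and 1 higher, with Gpt2, the alanine aminotransferase gene, at -0.52 (0.0087) and Shmt1 at 0.75 (0.0023). Without the 5 arrays Sesn2 (0.077) and Gpt2 (0.056) no longer passed, and 3 of the 18 synthetase genes were called higher beside 4 lower. In that fit 1113 of all 18193 genes were called higher and 1380 lower at 4 h.

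Other stress branches were counted in the same way. Of 11 bZIP partners of ATF4, 2 were called higher and 2 lower at 4 h, with the immediate early genes Jun at 0.76 (adjusted p = 0.00032) and Fos at 0.68 (0.0076), and Cebpa at -0.88 (0.0029). Of 14 chaperones and partners of the ATF6 and XBP1 branches, 7 were lower and 1 higher, with Calr at -0.29 (0.0029), Hsp90b1 at -0.29 (0.0041) and Dnajb9 at 0.62 (0.035). Of 8 NRF2 targets, a list that includes Slc7a11, 3 were higher and none lower, with Txnrd1 at 0.49 (0.00048) and Gclc at 0.38 (0.010), and without the 5 arrays 1 was higher and 1 lower. Of 13 genes for eIF2 kinases, eIF2B and the eIF2 phosphatase, 1 was higher (Eif2b3, 0.29, 0.023) and none lower. Fibroblast markers moved too, 4 of 9 lower and none higher at 4 h, among them Col3a1 at -0.40 (0.00041), with summed levels of 155196 to 162810 in untreated wild-type arrays and 119960 to 144074 at 4 h, and their part in the other results was not tested.

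From 4 h to 24 h, 6 of the 15 other ATF4 targets were called higher and none lower, with a median of 0.47 against 0.05 over all genes, and beside 6.46% of all genes called higher and 3.92% lower. They were Nupr1 at 0.82 (adjusted p = 4.2e-05), the very low density lipoprotein receptor gene Vldlr at 0.85 (0.0028), Atf3 at 0.97 (0.0046), the eIF2 phosphatase subunit gene Ppp1r15a at 0.47 (0.0060), Sesn2 at 0.57 (0.016) and the peptide hormone gene Adm2, which was below background in every knockout group and in R untreated and at 4 h, so no size is given for it. Without the 5 arrays 10 of the 15 were called. In that fit 1464 of all 18193 genes were called higher and 1135 lower. Of the 12 synthesis enzymes 3 were higher and 1 lower, with Gpt2 at 0.84 (0.00036) and the mitochondrial folate gene Aldh1l2 at 0.77 (0.0010). Of the 12 transporters 3 were higher and none lower, with Slc6a9 at 0.59 (0.0032) and Slc1a4 at 0.88 (0.028), and without the 5 arrays 5 were. Of the 18 synthetase genes 5 were higher and none lower, with Cars at 0.53 (0.0013) and Sars at 0.38 (0.0071). Of the bZIP partners 4 were higher, of the 14 chaperones none in either direction, and of the NRF2 targets 2 were higher and 2 lower. Several genes stand in more than 1 list, Nupr1, Atf3 and Ppp1r15a among them, so the counts overlap.

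**Figure D4:**
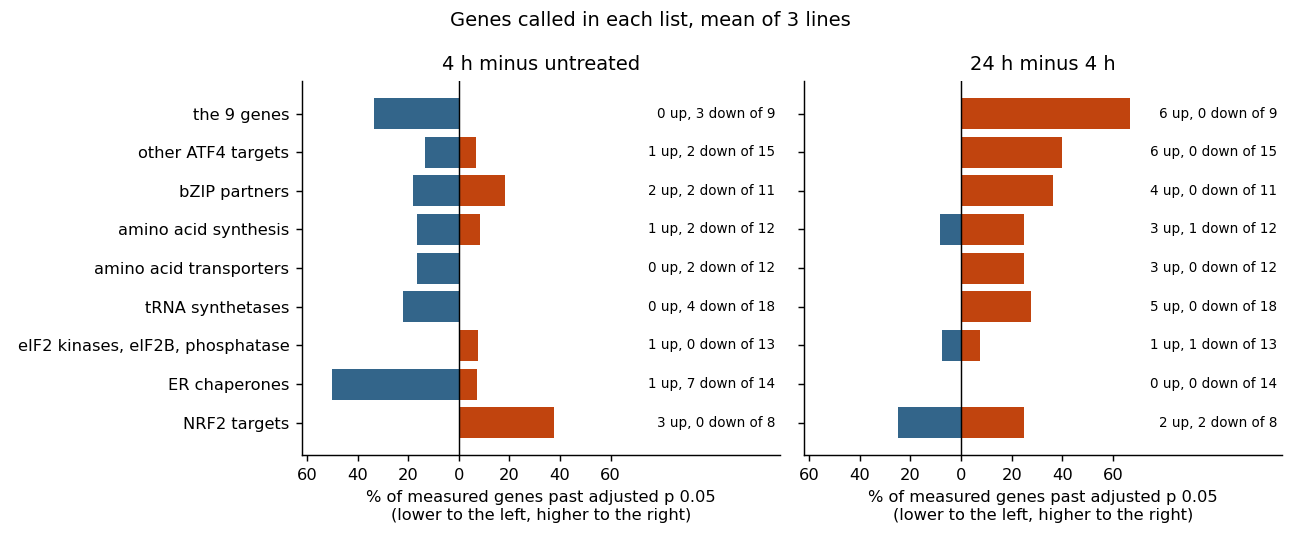
Share of measured genes in each list with an adjusted p below 0.05, lower to the left and higher to the right, for the mean of the 3 lines. At 4 h against untreated the chaperones had 7 of 14 lower and the 9 genes 3 lower, and from 4 h to 24 h the 9 genes had 6 higher and the other ATF4 targets 6 of 15.

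Between untreated lines, 7.77% of all genes were called higher and 9.83% lower in the knockout, and 9.39% each way in R, and small counts near these shares are near background. Of the 12 amino acid synthesis enzymes 4 were called higher in knockout than in wild-type cells and none lower (median 0.47), and 3 were higher in R and none lower (median 0.31). Bcat1, a branched-chain aminotransferase gene, was at 1.16 (adjusted p = 5.6e-05) in the knockout and 1.00 (0.00027) in R, and Cth, which makes cysteine, at 1.69 (0.0025) and 1.97 (0.00061). Transporters went either way, 2 higher and 2 lower in each line, with the large neutral amino acid transporter gene Slc7a5 at 1.08 (0.023) and 1.27 (0.0076), the glutamine transporter genes Slc38a1 at -2.69 (2.9e-09) and -2.10 (7.0e-08) and Slc1a5 at -0.98 (0.0048) in R. Slc1a5 was not above background in untreated knockout cells, where it was at least 4.33-fold lower than in wild type (adjusted p = 3.7e-07). Of the 15 other ATF4 targets none was higher and 5 lower in each, with Vldlr at -1.33 and -1.76 and Cdkn1a at -1.33 and -2.36. The other three, Adm2, Stc2 and Fgf21, had means below background in both lines. Set against the background level, knockout Adm2 was lower by at least 2.8-fold and R Adm2 by at least 2.88-fold, Stc2 at least 1.94-fold in both and Fgf21 at least 2.17-fold in both. Without the 5 arrays 3 of the 15 were higher and 3 lower in the knockout, and Fgf21 (0.057) and Cdkn1a (0.089) no longer passed there. Of all 18193 genes 1816 were then called higher and 1965 lower in the knockout.

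Among the 9 genes, likeness over the 9 group means was highest for Ddit3 with Trib3 (Pearson r = 0.93), Ddit3 with Ddit4 (0.90), Trib3 with Ddit4 (0.89) and Ddit3 with Chac1 (0.80), while Asns went most with Slc7a11 (0.79) and Chac1 with Psat1 was at -0.67. These describe 9 points that share arrays and lines. Among 2793 other genes with enough variation, those ranked most like the mean profile of the 9 were Pik3ip1 (0.94), N4bp2l1 (0.93) and Abat (0.90), then Cmbl, Hoga1 and Ang. Taken by gene, the most alike were Igdcc4 for Atf4 (0.88), Bmf for Ddit3 (0.96), Il18 for Chac1 (0.98), Pik3ip1 for Trib3 (0.98) and N4bp2l1 for Ddit4 (0.93), and Apol7a was found for Phgdh. Pik3ip1, Abat, Igdcc4 and Il18 were above background in all 9 groups, Bmf in 7, N4bp2l1 in 6, Ang and Apol7a in 4, and Cmbl and Hoga1 in 2, and values below background carry no order. The genes found for Asns, Psat1 and Slc7a11, which were Pyroxd2, Rab3c and Maats1, were above background in 1, 1 and 2 of 9 groups. No r is given for these, nor for Cmbl, Hoga1, Ang and Apol7a, since most of their values lay below background. Pik3ip1, whose product restrains PI3 kinase, had group means of 362.6, 205.9 and 543 in wild-type cells untreated, at 4 h and at 24 h, 319.2, 172.9 and 328.3 in the knockout, and 433.6, 259.2 and 455.6 in the line labelled R, lowest at 4 h in each line.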

How the data were processed

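RNA from 27 samples was measured on Affymetrix arrays. The authors deposited linear intensity values, 1 column per array, scaled so that the mean after trimming 2% at each end was 500.003 on each array, as the values themselves show. RMA and GCRMA are named, without roles, in the submitters' processing notes, and the deposited values, on a linear scale with array medians from 54.43 to 80, have the form of neither, so the summary method is not given in the sources used here. Intensities carry no counting depth, so precision is set by how many arrays there are.

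The log2 of each value was used, with no offset. Of the probe sets 34945 had 1 gene symbol in the platform annotation, 932 several and 9160 none, 34741 matched the RefSeq gene table, and 64 controls were left out. Each of 18193 genes was represented by its brightest probe set. limma 3.58.1 in R 4.3.3 was fitted to 9 group means (18 residual degrees of freedom) and tested on simulated data, and a gene was called at a two-sided Benjamini-Hochberg adjusted p below 0.05 over all genes of a contrast. Errors given with ± are standard errors of that fit with 3 arrays per group. 18 contrasts were planned, and the means over 3 lines and the line comparisons after irradiation were added after seeing the data. The members, lists and tests were chosen with earlier results of these data known.

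The text names the 9 genes, up to 3 genes per list with the smallest p in a contrast, other called list genes chosen after their values were seen, and by Pearson r the 6 genes most like their mean and 1 per gene, among genes above background in at least 1 group with an SD of group means of at least 0.5. Replicate numbers did not pair the arrays: for the 108 pairs of same-numbered arrays, deviations from group means correlated at -0.79 to 0.83 (median 0.03), so a replicate block was an alternative only. The other alternatives were the compared arrays alone, an intensity trend, a robust prior, genes above the median level, quantile normalization, equal array medians, an offset of 32, the mean of or each of a gene's probe sets, the 5 arrays with outlying control ratios left out, and each array left out in turn.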

Additional observations from a re-analysis of the deposited data

Results flagged for a closer look

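For 4 responses, every irradiated array of a line lay on one side of that line's untreated mean while every irradiated array of another line lay on the opposite side. This holds for the brightest probe sets, and limma's interaction test called none of them. On a dimmer probe set Slc7a11 fell at 4 h in wild type (72.7 to 52.9) and knockout (76 to 62.23), to below background. Phgdh rose in both on a dimmer one (5845 to 6825 and 6401 to 6637), but not on another (10329 to 11404 and 10427 to 9963). Atf4 rose by 24 h in wild type (2100 to 2806), knockout (2237 to 2397) and R (2168 to 2676) on a dimmer one. At 4 h Phgdh differed between the knockout and the wild type by -0.29 on the log2 scale (-0.11 in the knockout, 0.18 in the wild type, adjusted p = 0.99), and Slc7a11 by -0.57 (-0.29 and 0.27, adjusted p = 1). At 24 h Atf4 differed between the knockout and the wild type by -0.50 (-0.15 and 0.36, adjusted p = 1), and between the line labelled R and the knockout by 0.26 (0.11 and -0.15, adjusted p = 1).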

How the results depend on the processing

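Over 11 alternatives no called difference of the 9 genes turned its sign, arrays left out set aside. The 19 called differences gave 209 values, of which 178 kept the call and 31 lost it. Of the uncalled differences 52 values gained a call and 92 changed sign while uncalled. The number of the 9 genes called moved by over 1.5 times as follows. On the compared arrays alone it was 0 for wild type and R from 4 h to 24 h, for knockout and R against wild type untreated, for R against wild type at 4 h and 24 h, and for knockout against wild type at 24 h. Of all 18193 genes 1, 0, 1258, 1127, 1882, 1969 and 2200 were called there, in this order. With equal array medians it was 3 rather than 6 for the mean of the lines from 4 h to 24 h, 1 in wild type and 0 in R from 4 h to 24 h, and 0 for R against wild type at 24 h. Of all genes 1719, 394, 68 and 3319 were called there, in this order. Genes above the median level gave 5 for the mean of the lines at 4 h and 1 at 24 h against untreated, 1 in each single line at 4 h, 4 in wild type from 4 h to 24 h, 3 for knockout and 4 for R against wild type at 24 h, 2 for R against wild type untreated and 1 for R against knockout at 4 h. Of the 9096 genes above that level, 2939 were called for knockout and 3309 for R against wild type at 24 h. In wild type from 4 h to 24 h 876 were. For the mean of the lines 3389 were called at 4 h and 308 at 24 h against untreated. The main fit called 2813 and 57 of all 18193 genes there. At 4 h 1152, 317 and 618 were called in wild type, knockout and R. For R, 2845 were called against wild type untreated and 777 against knockout at 4 h. Calls over all genes moved with the settings too, so a higher count of the 9 is not by itself a gain. An intensity trend gave 5 for the mean at 4 h, 1 in the knockout at 4 h and 2 for knockout against wild type at 24 h. Of all genes 3171, 185 and 3604 were called there, in this order. The mean of all probe sets gave 1 for the mean of the lines at 24 h against untreated, 0 in R from 4 h to 24 h, 3 for R against wild type untreated and 2 at 4 h, 2 for knockout against wild type at 24 h and 1 for R against knockout at 4 h and at 24 h. Of all genes 32, 136, 2885, 2403, 2835, 424 and 681 were called there, in this order. An offset of 32 gave 1 for the mean of the lines at 24 h against untreated, 2 for R against wild type untreated and 4 at 24 h, 2 for knockout against wild type at 24 h and 1 for R against knockout at 4 h. Of all genes 117, 3691, 4274, 3798 and 701 were called there, in this order. For R against wild type at 24 h, quantile normalization and a robust prior gave 1, and each probe set by itself 0. They called 3869 and 3694 of all genes, and 5568 of 45037 probe sets. Without the 5 arrays the counts were 1 in wild type and 2 in R from 4 h to 24 h, 2 for R against wild type untreated and at 4 h, 1 and 2 for knockout against wild type at 4 h and 24 h, and 1 for R against knockout at 4 h. Smaller moves were to 3 for wild type from 4 h to 24 h (intensity trend, offset), for knockout against wild type untreated (trend, genes above the median level, offset) and for R against wild type at 24 h (trend). The mean of the lines at 4 h had 2 (compared arrays, equal array medians, each probe set) or 4 (quantile normalization, offset), and from 4 h to 24 h 7 (compared arrays, trend, genes above the median level). The replicate block moved the count for R against wild type at 24 h from 2 to 1, where Atf4 was lost (adjusted p = 0.06), and changed no other call among 243 results; 14 of 27 arrays correlated best with arrays of their own number. With each array left out in turn the count ran from 0 to 3 in wild type and 0 to 1 in R from 4 h to 24 h, 0 to 1 in R at 4 h, 1 to 3 for knockout and 1 to 2 for R against wild type untreated, 1 to 3 for knockout against wild type at 24 h, 0 to 1 and 0 to 2 for R against wild type at 4 h and 24 h, 2 to 4 for the mean at 4 h and 6 to 7 from 4 h to 24 h, and was 0 to 0 elsewhere. The promoter motif share was 0.895% with TTGCATCA. The cause of these shifts was not tested.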
